A study of Mus musculus with 6 samples.

Results

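The 54 genes described here are interferon-stimulated genes and sensors of foreign or misplaced nucleic acid, whose mRNA was sequenced in bulk from mouse splenic cDC2s, the type 2 class of conventional dendritic cells. They were chosen by gene symbol from a list drawn up with earlier results of these data known. All 54 had a row among the 14788 gene symbols of the count table, 52 under their own symbol and 2 under an older one (E330016A19Rik for Mb21d1 and D14Ertd668e for Phf11d), and all 54 passed the filter on low counts, as did 11504 genes in all. The study holds 6 libraries of C57BL/6 cells, 3 wild-type (WT) and 3 Arhgef1-/- (knockout), and its labels name no treatment. Arhgef1 encodes an exchange factor that activates the GTPase RhoA. The sources used here do not give age, sex, how the knockout was made or how the cells were sorted. Nor do the labels say that replicates are separate animals, so the spread behind each p-value may be technical.

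Interferons of type I bind a receptor made of IFNAR1 and IFNAR2, whose kinases JAK1 and TYK2 phosphorylate STAT2. STAT2 and IRF9 belong to a complex that binds the interferon-stimulated response element, a repeat of GAAA blocks, and switches on genes whose products block viral entry, translation and replication. Cytosolic sensors of RNA (RIG-I and MDA5) and of DNA (cGAS, acting through STING) start interferon production, and many sensors are themselves interferon-stimulated. Dendritic cells keep this system running at a low level without infection.

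Total counts ran from 8408325 to 11714365 per library. Arhgef1 stood at 287, 317 and 246 CPM (counts scaled to a common library size) in WT replicates 1, 2 and 3 and at 115, 128 and 144 CPM in knockout replicates 1, 2 and 3. The knockout mean was 45.5% of the WT mean. All 3 knockout libraries were below all WT libraries, the direction the labels imply, but which part of the gene was deleted was not examined here. Of 10 cDC2 markers Clec10a was at or under 1.05 CPM, and the other 9 were at 72.5 CPM or above in every library. Of these 9, Sirpa, H2-Ab1, Clec4a4, Cd4 and Cd209a were called lower in the knockout, Cd4 to 62.9% and Cd209a to 33.2% of the WT mean, and the median log2 fold change of the 9 was -0.30. All WT libraries came from lane 1 and all knockout libraries from lane 2 under another run name, so lane, run and genotype cannot be told apart. One WT library stood apart in the genes described here: WT replicate 1 was the highest WT library for 46 of the 54 (85.2%) and the lowest for 0, against 33.9% highest among all genes tested. The counts and calls are given with and without it, and so is each fold change printed below that it moved by more than 1.5 times.

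The response element can be read in the promoters. Promoter windows of 300 bases (250 before and 50 after a transcription start, RefSeq, build GRCm38.p6) were found for 42 of the 54 genes. A core of the element, a GAAA block, any 2 bases (NN) and another GAAA block, searched on either strand, was present in 22 of these 42 (52.4%) and in 3.99% of the 27025 genes with a window. The inverted repeat TTCNNNGAA, which reads the same on both strands and is the core of the gamma-activated site, was present in 11 of 42 (26.2%) against 9.55% of all genes. No window was at hand for Usp18, Dhx58, Zbp1, Tmem173, Ifi204, Oas2, Mx1, Mx2, Parp9, Parp14, Ifi27l2a and Rtp4. Matches of the 2 patterns overlapped in 2 of the 5 genes that held both. The 250 bases before the start are shown for Ifit3 and Oas3, the members lower in the knockout that had a match there, with each match in capitals (5′ to 3′ along the gene's strand).
Ifit3, chr19:34583279-34583528, plus strand: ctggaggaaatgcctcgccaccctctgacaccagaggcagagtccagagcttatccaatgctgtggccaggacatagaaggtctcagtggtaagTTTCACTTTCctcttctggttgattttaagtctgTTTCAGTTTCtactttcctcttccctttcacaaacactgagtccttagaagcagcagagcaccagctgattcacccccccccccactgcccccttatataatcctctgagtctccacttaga
Oas3, chr5:120777660-120777909, minus strand: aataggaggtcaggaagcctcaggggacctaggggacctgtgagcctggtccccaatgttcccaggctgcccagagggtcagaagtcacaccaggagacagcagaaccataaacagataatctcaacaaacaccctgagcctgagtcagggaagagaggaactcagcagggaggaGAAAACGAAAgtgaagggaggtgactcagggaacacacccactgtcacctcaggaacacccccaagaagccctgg

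In Ifit3 the matches began 156 and 122 bases before the start, and in Oas3 75 bases before it. By role, a match was present in 0 of 4 other interferon-stimulated genes, 1 of 5 receptor and signalling genes (Stat2) and 4 of 4 GTPase genes. Shorter stretches are given as examples from several roles. They are from the signalling gene Stat2, the sensor gene Ifih1, the effector genes Isg15 and Ifit1 and the GTPase genes Irgm1 and Gbp2. The Ifih1 match began 32 bases after the start.
Stat2, chr10:128270268-128270293, plus strand: caccctggTTTCAGTTTCctttccct
Ifih1, chr2:62646206-62646231, minus strand: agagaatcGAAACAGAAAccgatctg
Isg15, chr4:156200867-156200892, minus strand: aggaaaccGAAACAGAAAatagctct
Ifit1, chr19:34640777-34640802, plus strand: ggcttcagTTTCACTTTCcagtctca
Irgm1, chr11:48871427-48871452, minus strand: aagaaataGAAACCGAAActgattct
Gbp2, chr3:142620596-142620621, plus strand: tcttttagTTTCACTTTCactgtctt

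A match describes letters, not a bound site. The 22 genes with a match to the GAAA pair had a median log2 fold change of -0.24 in the knockout and the 20 without one -0.13. The excess of WT replicate 1 over the mean of the other 2 WT libraries had a median of 0.35 on the log2 scale in the genes with a match and 0.36 in those without.

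In the knockout 5 of the 54 genes fell and 1 rose, and 48 did not pass the test (edgeR's quasi-likelihood test, Benjamini-Hochberg adjusted p under 0.05 over all genes tested). Those that fell were Ifit3, Ifi44, Oas3, Herc6 and Ifih1, and the one that rose was the DNA sensor gene Mb21d1 (cGAS). Among all genes tested 9.67% were called, 5.09% higher and 4.58% lower, so 6 of 54 (11.1%) is close to the background. The share called lower, 9.26%, rests on 5 genes. The direction was more one-sided than the calls: 46 of 54 log2 fold changes were below 0 (85.2%), against 49.9% of all genes, and the median was -0.18 against 0.00. The 3 knockout values lay entirely below the 3 WT values in 12 genes, where 13.5% of all genes did so, and entirely above in 1, where 13.7% of all genes did so.

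These counts changed when WT replicate 1 was left out. Then 0 of the 54 were called by edgeR (lowest adjusted p = 0.113, and 6 with an unadjusted p under 0.05), while 5.09% of all genes still were. The median log2 fold change became -0.06, and 35 of 54 stayed below 0. Leaving out knockout replicate 3 also left 0 called (lowest adjusted p = 0.0511, 12 with an unadjusted p under 0.05, background 6.80%), but the median stayed at -0.16. Without knockout replicate 2 the calls were down to 1, Ifit3 (background 5.35%).

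**Figure D1:**
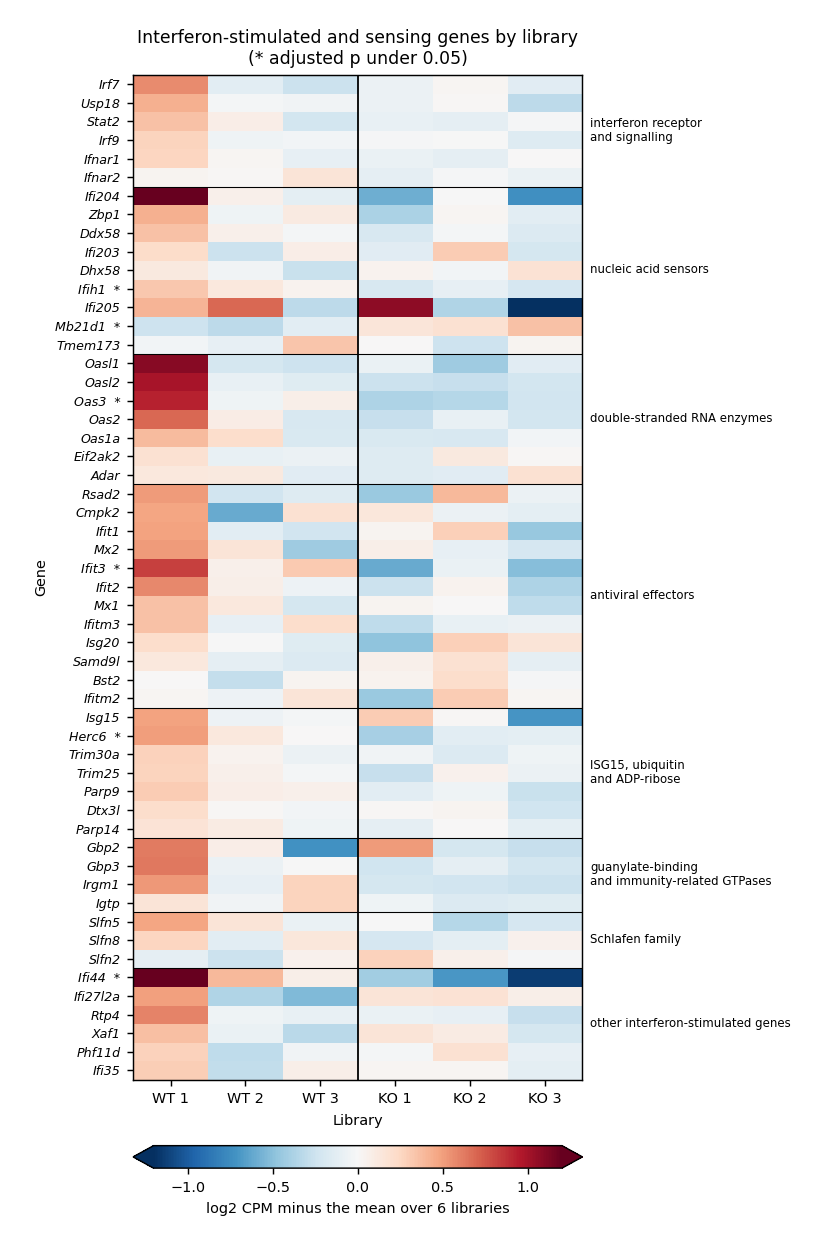
Level of each of the 54 genes (rows, grouped by role) in each library (columns), as log2 CPM minus the gene's mean over the 6 libraries. Red is above and blue below the mean, colours are clipped at 1.2 in either direction, and asterisks mark an adjusted p under 0.05. WT replicate 1 is the reddest column: it is the highest of the 6 libraries in 41 of the 54 genes.

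The spread within WT was wide and that within the knockout narrow. The SD of log2 CPM over 3 libraries had a median of 0.27 in WT and 0.14 in the knockout for the 54 genes, against 0.19 and 0.22 for all genes tested. In 44 of the 54 (81.5%) the WT SD was the larger, against 43.0% of all genes. Restricting to a mean of at least 10 CPM, since low counts spread more, left 51 of the genes with medians of 0.26 and 0.14, against 0.15 and 0.17 for all genes at that level. In WT replicate 1 the genes lay a median of 0.40 above the mean of WT replicates 2 and 3, and 16 of 54 (29.6%) lay more than 1.5-fold above it, against 7.55% of all genes. The same median was -0.18 for WT replicate 2 and -0.24 for WT replicate 3, each against the other 2, and between -0.05 and 0.09 for the knockout libraries. The mean of WT replicates 2 and 3 exceeded the knockout mean in 35 of 54 genes (64.8%, against 50.9% of all genes), and the median of this difference over all 54 was 0.08. Both lay above all 3 knockout libraries in 12 (22.2%, against 17.4% of all genes).

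Markers of other cells were measured in the same libraries. The 17 macrophage markers summed to 1264, 959 and 810 CPM in WT replicates 1, 2 and 3 and to 465, 298 and 309 CPM in the knockout replicates, with 14 of 17 lower and 0 at 0 in all libraries. Of the 17, 15 were highest in WT replicate 1 among the WT libraries, and 2, Emr1 and Marco, were lowest there. The median excess of WT replicate 1 over the other WT libraries was 0.76 for the 17. In knockout replicate 1 the macrophage markers lay 0.90 above the other knockout libraries, and the 54 genes lay at -0.03. The marker sum of that library, 465 CPM, was still below that of every WT library. The plasmacytoid markers summed to 389 to 421 CPM in WT and 451 to 557 CPM in the knockout, mostly from Tcf4, Runx2 and Spib, and the defining Siglech stood at 1.14 to 4.31 CPM. Of 6 plasmacytoid markers tested 0 were called lower and 1 higher, Spib (0.81, edgeR adjusted p = 4.87e-04). Spib stood at 59.6, 53.8 and 73.1 CPM in WT and 104, 107 and 116 CPM in the knockout. The monocyte markers summed to 1181 to 1315 CPM in WT and 1012 to 1073 CPM in the knockout, with 585 to 762 CPM of it from Nr4a1 and Ly6c2 at or under 0.94 CPM. Of 8 monocyte markers tested 3 were called lower, Csf1r (-0.76), Lyz2 (-0.81) and Plac8 (-0.43), and Csf1r and Lyz2 were highest in WT replicate 1, by 0.65 and 0.73 over the other WT libraries. The cDC1 markers summed to 1875 to 2099 CPM in WT and 1820 to 1896 CPM in the knockout, of which Wdfy4 alone gave 1751 to 1959 CPM. Xcr1 stood at 6.14 to 29.8 CPM, and 2 of 7 cDC1 markers were called lower, Tlr11 (-1.36) and Cadm1 (-1.08). B cell markers summed to between 28.6 and 75.3 CPM, T cell markers to between 2.59 and 11.9, NK cell markers to between 0.60 and 5.07 and neutrophil markers to between 0.21 and 15.6. In bulk RNA, fewer cells of a type and less RNA per cell cannot be told apart, and the part these markers have in the results was not tested.

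**Figure D2:**
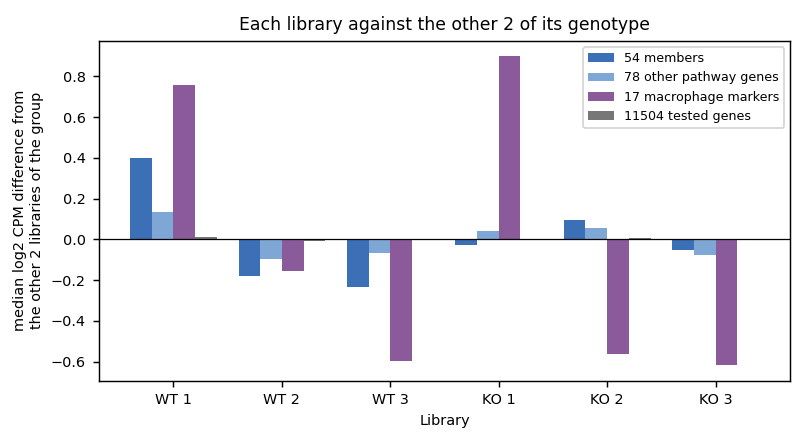
Median difference in log2 CPM between each library and the mean of the other 2 libraries of its genotype (bars, one colour per gene list). The 54 genes stand out in WT replicate 1 at 0.40, the other pathway genes at 0.13, and all genes tested lie near 0 in every library, while the macrophage markers are high in both WT replicate 1 (0.76) and knockout replicate 1 (0.90).

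The receptor and signalling genes did not pass the test. Ifnar1, a chain of the interferon receptor, stood at 177, 151 and 138 CPM in WT and 140, 137 and 149 CPM in the knockout (log2 fold change -0.13 ± 0.11 SE, edgeR adjusted p = 0.530, and -0.027 without WT replicate 1). The groups overlapped. Ifnar2, the other chain, stood at 371, 367 and 403 CPM in WT and 337, 358 and 343 CPM in the knockout (-0.14 ± 0.08, edgeR adjusted p = 0.345), and the groups did not overlap. Stat2, the signal transducer of the complex, stood at 411, 342 and 277 CPM in WT against 302, 300 and 320 CPM in the knockout (-0.16 ± 0.11, and -0.0083 without WT replicate 1). Its 3 knockout values lay within the WT range, which ran over 0.57 on the log2 scale. Irf9, the DNA-binding subunit, was at 144, 115 and 117 CPM in WT and 118, 119 and 107 CPM in the knockout (-0.13 ± 0.11, and -0.020 without WT replicate 1). Only WT replicate 1 lay outside 107 to 119 CPM. Irf7, the regulator that amplifies interferon production, showed this most plainly: 77.6, 47.8 and 43.6 CPM in WT and 49.9, 53.3 and 47.6 CPM in the knockout. Its log2 fold change was -0.17 ± 0.18 over 6 libraries and 0.14 without WT replicate 1. Usp18, which shuts off signalling at the receptor, was at 67.4, 49.2 and 48.6 CPM in WT and 47.7, 50.6 and 40.1 CPM in the knockout (-0.26 ± 0.16, and -0.085 without WT replicate 1).

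Among the nucleic acid sensors, 1 of 9 fell, 1 rose and 7 did not pass. Ifih1 encodes MDA5, a sensor of long double-stranded RNA (ENSMUSG00000026896.14, mm10 chromosome 2, 62595798 to 62646255, minus strand). It stood at 206, 179 and 169 CPM in WT and 144, 153 and 144 CPM in the knockout, every knockout library below every WT library. It fell by 0.33 ± 0.10 on the log2 scale (edgeR adjusted p = 0.0443), and the call was lost without any single library other than WT replicate 3, with values from -0.25 without WT replicate 1 to -0.39 without WT replicate 3. Ddx58, encoding the RNA sensor RIG-I, was at 194, 159 and 149 CPM against 133, 149 and 136 CPM, again without overlap, the lowest WT value barely above the highest knockout value (-0.27 ± 0.11, edgeR adjusted p = 0.151, and -0.15 without WT replicate 1). Dhx58, whose product LGP2 regulates the other RNA sensors, was at 42.8 to 56.0 CPM in WT and 50.5 to 58.2 CPM in the knockout (0.12 ± 0.14, and 0.22 without WT replicate 1).

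Mb21d1, encoding the DNA sensor cGAS, moved the other way (ENSMUSG00000032344.17, mm10 chromosome 9, 78430526 to 78443237, minus strand). It stood at 42.4, 40.5 and 46.2 CPM in WT and 56.0, 57.3 and 64.6 CPM in the knockout. The groups did not overlap, and WT replicate 1 lay between the other WT libraries. Mb21d1 rose by 0.46 ± 0.14 (edgeR adjusted p = 0.0424). Its size held without WT replicate 1 (0.45), although the adjusted p then missed the threshold at 0.140, and the call was lost without any single library other than knockout replicate 1, with values from 0.40 to 0.52. Tmem173, encoding STING, through which cGAS signals, was at 95.8, 91.9 and 124 CPM in WT and 98.7, 82.5 and 100 CPM in the knockout (-0.14 ± 0.13, edgeR adjusted p = 0.571). The interferon-inducible Ifi200 genes Ifi203, Ifi204 and Ifi205 are close paralogs in 1 cluster on chromosome 1, so reads they share may have been lost or misassigned. Ifi204 stood at 23.3, 9.21 and 8.14 CPM in WT and 5.82, 8.79 and 5.201 CPM in the knockout. Its high value was that of WT replicate 1, and its log2 fold change of -1.04 ± 0.38 did not pass (edgeR adjusted p = 0.0949) and was -0.39 without that library. Ifi203 was at 231 to 321 CPM in WT and 238 to 341 CPM in the knockout. Ifi205 was at 2.36 to 4.95 CPM in WT and ran from 0.938 to 6.52 CPM in the knockout, highest in knockout replicate 1. Zbp1, a sensor of left-handed nucleic acid, was at 36.8 to 51.4 and 29.3 to 38.8 CPM.

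The enzymes that act on double-stranded RNA showed the widest separation of WT replicate 1, a median of 0.74 above the other WT libraries in 7 genes, with 7 of 7 highest there. Oas3, an oligoadenylate synthetase switched on by double-stranded RNA (ENSMUSG00000032661.9, mm10 chromosome 5, 120753098 to 120777661, minus strand), stood at 116, 59.1 and 64.1 CPM in WT and 47.1, 48.1 and 52.3 CPM in the knockout. The knockout libraries were tight, and the 2 lower WT libraries lay just above them. Oas3 fell by 0.70 ± 0.20 (edgeR adjusted p = 0.0301). Without WT replicate 1 the log2 fold change was -0.32 (edgeR adjusted p = 0.285), and leaving out any single knockout library also ended the call (-0.67 to -0.75).

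Oasl2, a relative of the oligoadenylate synthetases, stood at 404, 191 and 184 CPM in WT and 171, 169 and 175 CPM in the knockout. WT replicate 1 was at more than 2-fold the level of either other WT library, and the knockout values ranged over 0.05 on the log2 scale. The log2 fold change of -0.60 ± 0.20 did not pass (edgeR adjusted p = 0.0663) and was -0.13 without WT replicate 1. Oas2 was at 316, 208 and 172 CPM against 161, 183 and 168 CPM (-0.44 ± 0.15, edgeR adjusted p = 0.0815, and -0.15 without WT replicate 1). Oasl1, which restrains translation of Irf7, was at 12.8, 5.07 and 4.95 CPM in WT and 5.59, 4.34 and 5.37 CPM in the knockout. WT replicates 2 and 3 lay within the knockout range, and its log2 fold change of -0.59 ± 0.41 became 0.03 without WT replicate 1. Oas1a, with close copies beside it in the genome, was at 26.0 to 38.4 CPM in WT and 25.9 to 28.9 CPM in the knockout. Eif2ak2, encoding the kinase PKR that stops translation, was at 123 to 148 and 117 to 141 CPM, and the RNA editing gene Adar at 80.6 to 96.1 and 79.4 to 100 CPM, with overlap in both.

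Of 12 antiviral effector genes 1 fell and 11 did not pass. Ifit3, of the family that binds foreign RNA and blocks its translation (ENSMUSG00000074896.3, mm10 chromosome 19, 34583531 to 34588731, plus strand), stood at 73.6, 43.3 and 51.7 CPM in WT and 27.2, 39.2 and 29.0 CPM in the knockout. No knockout library reached the lowest WT library. Ifit3 fell by 0.82 ± 0.19, the smallest p among the 54 (edgeR adjusted p = 0.0112). Without WT replicate 1 the log2 fold change was -0.58 (edgeR adjusted p = 0.113), and without knockout replicate 3 it was -0.76 (edgeR adjusted p = 0.0511). Its near-identical neighbour Ifit3b, counted as I830012O16Rik, stood at 23.9, 14.9 and 20.9 CPM in WT and 12.1, 11.2 and 8.61 CPM in the knockout and also fell (-0.91 ± 0.25, edgeR adjusted p = 0.0302). The 2 may share reads. The other Ifit genes were Ifit1, at 64.8, 42.4 and 39.5 CPM against 47.5, 56.5 and 33.8 CPM (-0.10 ± 0.20, and 0.16 without WT replicate 1), and Ifit2, at 93.9, 66.0 and 60.0 CPM against 52.4, 64.6 and 48.5 CPM (-0.41 ± 0.17, edgeR adjusted p = 0.137, and -0.19 without WT replicate 1). In both, WT replicate 1 was the highest library and the rest overlapped.

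The classic antiviral genes that are switched on strongly by interferon did not pass. Rsad2, encoding viperin, stood at 55.3, 32.9 and 34.8 CPM in WT and 28.4, 50.8 and 36.9 CPM in the knockout. Mx1, a gene of the dynamin-like GTPase family, ran from 49.5 to 73.5 CPM in WT and from 46.5 to 58.8 CPM in the knockout. For its relative Mx2 the ranges were 7.79 to 15.1 CPM and 9.12 to 11.1 CPM. Cmpk2, a nucleotide kinase gene beside Rsad2, stood at 20.6, 9.67 and 16.9 CPM in WT and 16.3, 14.1 and 13.6 CPM in the knockout. Its WT libraries spanned 1.07 on the log2 scale and enclosed the knockout. Bst2, the tether of budding virions and a surface marker of plasmacytoid dendritic cells, was at 10.02 to 12.6 CPM in WT and 12.2 to 14.3 CPM in the knockout (0.16 ± 0.25). Samd9l, a restriction factor, was at 236 to 288 and 245 to 300 CPM, and Isg20, an exonuclease, at 45.1 to 57.6 and 35.5 to 60.6 CPM.

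Per kilobase of exon, which allows genes to be compared, the membrane proteins Ifitm3 and Ifitm2 that hold back viral fusion had the highest levels of the 54, at means of 574 and 162 CPM per kilobase in WT, followed by Ifnar2 at 114 and the ubiquitin ligase gene Trim25 at 70.1. The lowest were Ifi44 at 1.78 and Ifi205 at 0.90 CPM per kilobase. Ifitm3 stood above Ifitm2 in every WT library, and Ifitm2 above Ifnar2, while Ifnar2 exceeded Trim25 in each as well. In CPM, Ifitm3 was at 444, 323 and 401 in WT and 281, 325 and 329 in the knockout, where WT replicate 2 fell among the knockout values (-0.32 ± 0.11, edgeR adjusted p = 0.0660). Ifitm2 was at 98.9 to 115 CPM in WT and 75.8 to 128 CPM in the knockout. The 2 paralogs may share reads. Exons of Ifnar2 and Ifitm2 overlap those of Gm21970 and Gm45717 on the same strand, so some of their reads may have been lost. In all, 9 of the 54 genes have exons that overlap another protein-coding gene.

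**Figure D3:**
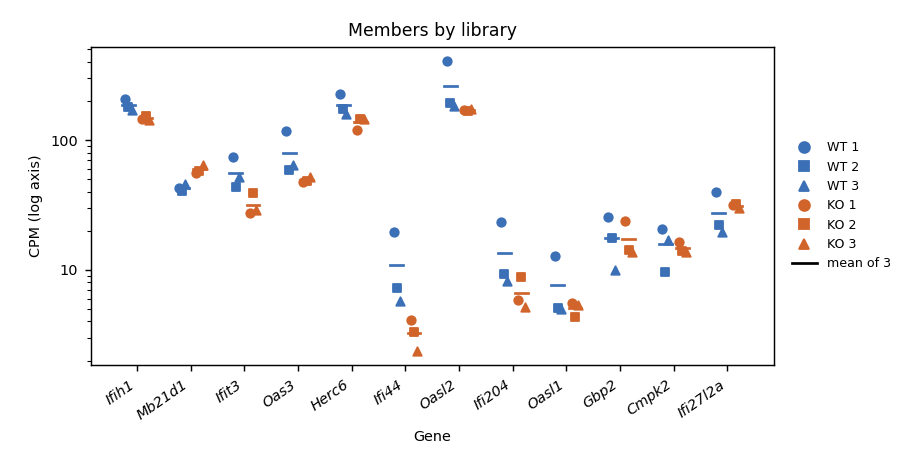
CPM (log axis) in each library for 12 of the 54 genes, the 6 that passed the test first, then others with a wide range in WT. Each point is a library (blue WT, orange knockout, shape by replicate number, which is not taken to pair libraries) and each bar the mean of 3. In Oasl2, Ifi204 and Oasl1 the blue circle of WT replicate 1 stands alone, whereas for Mb21d1 the 3 WT points lie together below the knockout.

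Genes of ISG15 conjugation, ubiquitin and ADP-ribose transfer included 1 of 7 that fell. Herc6, the mouse ligase that attaches ISG15 to proteins (ENSMUSG00000029798.11, mm10 chromosome 6, 57581000 to 57664632, plus strand), stood at 225, 173 and 160 CPM in WT and 120, 146 and 146 CPM in the knockout. The groups were apart by the gap between 160 and 146 CPM. Herc6 fell by 0.44 ± 0.12 (edgeR adjusted p = 0.0327), and the call was lost without any single library other than WT replicate 3, with -0.27 without WT replicate 1. Isg15 itself, the ubiquitin-like modifier, was at 20.3, 13.9 and 14.3 CPM against 17.9, 14.7 and 8.78 CPM (-0.24 ± 0.28, and -0.037 without WT replicate 1). Knockout replicate 3 was its lowest library. The divergent pair Parp9 and Dtx3l, an ADP-ribosyltransferase and its partner ligase, share exonic sequence on opposite strands, so without a stated strand setting their reads cannot be told apart. Parp9 was at 109 to 130 CPM in WT and 87.2 to 101 CPM in the knockout without overlap (-0.30 ± 0.11, edgeR adjusted p = 0.118), Dtx3l at 208 to 246 and 180 to 218 CPM. Parp14, another ADP-ribosyltransferase gene, was at 402 to 467 and 382 to 418 CPM, Trim25, which activates RIG-I, at 368 to 451 and 309 to 387 CPM, and Trim30a at 182 to 232 and 171 to 186 CPM. In 7 of 7 of these genes WT replicate 1 was the highest WT library.

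The 4 GTPase genes induced by interferons of both types did not pass. Irgm1, an immunity-related GTPase that acts in autophagy, stood at 71.1, 46.2 and 59.7 CPM in WT and 42.6, 42.2 and 41.4 CPM in the knockout. The groups did not overlap, and the knockout values were the tightest of the 54 genes at a range of 0.04 on the log2 scale (-0.49 ± 0.16, edgeR adjusted p = 0.0585). Its relative Igtp, whose exons overlap those of Irgm2, was at 45.3 to 56.3 and 41.6 to 44.9 CPM. Of the guanylate-binding protein genes, Gbp2 ran from 25.7 over 17.5 down to 9.91 CPM in WT replicates 1, 2 and 3 and stood at 23.7, 14.3 and 13.6 CPM in the knockout, a WT range of 1.36 with a fold change near 0 (-0.05 ± 0.30, and 0.32 without WT replicate 1). Gbp3 was at 14.6 to 24.04 and 13.0 to 14.3 CPM.

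Among the Schlafen genes, which restrain growth and viral translation, Slfn5 missed the threshold by the least of the 54. It stood at 464, 373 and 317 CPM in WT and 334, 265 and 291 CPM in the knockout, overlapping in 1 library of each group (-0.38 ± 0.12, edgeR adjusted p = 0.0508). It was past the threshold with DESeq2 (adjusted p = 0.0265) and limma-voom (adjusted p = 0.0461), but without WT replicate 1 its log2 fold change was -0.22 (edgeR adjusted p = 0.332). Slfn2 was at 72.8 to 90.1 and 86.4 to 105 CPM (0.21 ± 0.12), and Slfn8 at 156 to 204 and 148 to 177 CPM. Schlafen genes are a cluster of close copies.

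Of the other interferon-stimulated genes 1 of 6 fell. Ifi44, a gene of unsettled function that follows interferon closely (ENSMUSG00000028037.13, mm10 chromosome 3, 151730922 to 151749960, minus strand), had raw counts of 206, 63 and 49 in WT and 35, 32 and 28 in the knockout. These were 19.7, 7.25 and 5.78 CPM and 4.07, 3.31 and 2.39 CPM. The groups did not overlap, and its WT range of 1.74 was the widest of the 54. Ifi44 fell by 1.76 ± 0.44 (edgeR adjusted p = 0.0174). Without WT replicate 1 the log2 fold change was -1.005 (edgeR adjusted p = 0.274), and the call also ended without knockout replicate 2 (-1.78) or 3 (-1.57). Ifi27l2a, a small membrane protein gene, stood at 39.9, 22.1 and 19.6 CPM in WT and 31.7, 32.0 and 29.8 CPM in the knockout, so that WT replicate 1 lay above and the other WT libraries below the tight knockout group (0.19 ± 0.22, and 0.58 without WT replicate 1). Rtp4, a receptor transporter gene, was at 112, 71.6 and 69.6 CPM against 69.96, 69.1 and 61.0 CPM (-0.34 ± 0.16, edgeR adjusted p = 0.217, and -0.083 without WT replicate 1). The pro-apoptotic Xaf1 was at 41.6 to 66.9 and 44.9 to 58.1 CPM, Ifi35 at 32.2 to 48.6 and 36.4 to 40.2 CPM, and Phf11d at 21.5 to 32.4 and 24.9 to 30.3 CPM.

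**Figure D4:**
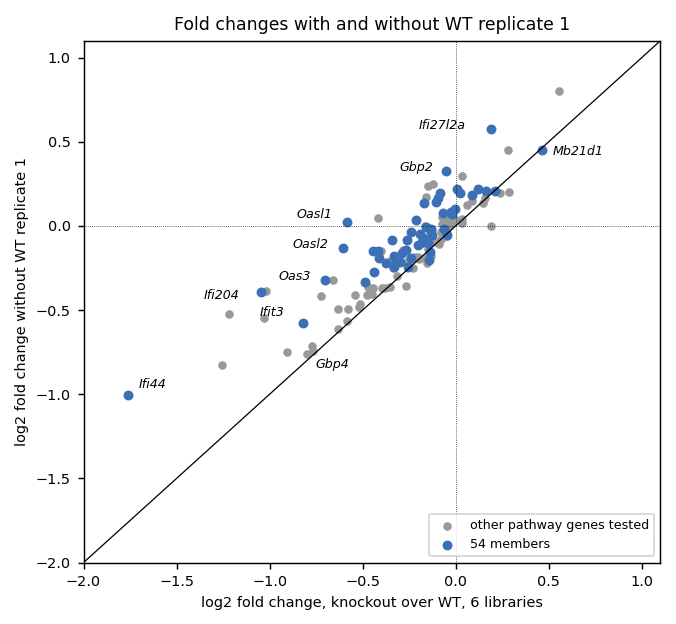
Log2 fold change of each gene (knockout over WT) from all 6 libraries (x axis) and from 5, without WT replicate 1 (y axis), with the 54 genes in blue, the other pathway genes tested in grey and the line of equal values. Most blue points lie above the line: the median moved from -0.18 to -0.06, Ifi44 from -1.76 to -1.005 and Oasl2 from -0.60 to -0.13, while Mb21d1 (0.46 and 0.45) and Gbp4 stayed close to it.

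Other genes of interferon signalling, sensing and response formed a list of 93, drawn up by function with earlier results of these data known. The list had 84 rows in the table, of which 78 were tested. Of these 15 fell (19.2%, against 4.58% of all genes), 0 rose and 63 did not pass, with a median log2 fold change of -0.16. The pattern of WT replicate 1 was seen here too but was smaller, a median of 0.13 above the other WT libraries and a median WT SD of 0.17. WT replicate 1 was the highest WT library for 50 of the 78 (64.1%, against 33.9% of all genes). Among the 55 other interferon-stimulated genes of this list it was highest for 41 (74.5%), with a median of 0.19. Without WT replicate 1, 6 of the 78 were still called lower, where 5.09% of all genes were called in either direction. Gbp4, Gbp8, Gbp9 and Epsti1 were among the 6, and the median log2 fold change of the list was -0.15. The same 6 were called without each of the other 5 libraries in turn. Without knockout replicate 3 the count was 8 (background 6.80% in either direction).

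Gbp8 stood at 258, 263 and 232 CPM in WT and 168, 146 and 172 CPM in the knockout (-0.63 ± 0.10, edgeR adjusted p = 3.41e-04), and Gbp4 at 102, 92.5 and 88.5 CPM against 54.5, 58.1 and 52.7 CPM (-0.77 ± 0.12, edgeR adjusted p = 4.32e-04). For both, the 3 WT libraries lay close together. Gbp9 fell by 0.45 ± 0.10 (edgeR adjusted p = 0.00624). The guanylate-binding protein genes are close copies, so counts may be split among them. Epsti1, an interferon-induced gene, was at 216, 193 and 200 CPM against 148, 144 and 134 CPM (-0.52 ± 0.10).

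A chain of the receptor for interferon gamma and a readout of this interferon were also among the 15. They, Ddx60 and Ifit3b were picked for description after their values were seen. Ifngr1, the ligand-binding chain, was at 482, 477 and 458 CPM in WT and 387, 396 and 356 CPM in the knockout (-0.32 ± 0.08, edgeR adjusted p = 0.0169). Cxcl9, a chemokine gene induced mainly by interferon gamma, was at 39.6, 40.9 and 32.7 CPM against 28.6, 18.8 and 17.7 CPM (-0.80 ± 0.20, edgeR adjusted p = 0.0164). Ifngr2, the other chain of the receptor, did not pass (-0.05 ± 0.10, edgeR adjusted p = 0.844), and its groups overlapped. Nor did the kinase gene Jak2 (-0.07 ± 0.07, edgeR adjusted p = 0.625) or the chemokine gene Cxcl10 (-0.48, edgeR adjusted p = 0.232). Irf1 was at 133, 121 and 141 CPM against 103, 114 and 87.9 CPM (-0.38 ± 0.12, edgeR adjusted p = 0.0480). Ifngr1, Cxcl9 and Irf1 missed the threshold without WT replicate 1, although their log2 fold changes moved little, to -0.30, -0.76 and -0.37. They also missed it without WT replicate 2 and without knockout replicate 3. Cxcl9 missed it without knockout replicate 2 as well, and Irf1 without WT replicate 3 or knockout replicate 1. Ddx60, a helicase gene, fell by 0.63 ± 0.14 (edgeR adjusted p = 0.00846), and other called genes included Samhd1, Aim2, Pyhin1, Trim34a and Ifit3b, between -0.25 and -0.91. These 6 also missed the threshold without WT replicate 1, Ddx60 at -0.49 (edgeR adjusted p = 0.0797). Ddx60 was still called without each other library, while the rest each missed the threshold without some other library too. The receptor kinase genes Jak1 (-0.13 ± 0.08) and Tyk2 (-0.08 ± 0.12) did not pass, nor did Irf3 (0.03 ± 0.13) and the adaptor gene Mavs (-0.06 ± 0.20). Without WT replicate 1, Jak1 was at -0.083, Tyk2 at -0.038 and Mavs at -0.023 (log2 fold change). Irf3, the factor that sensors activate, was at 59.0 to 61.9 CPM in WT and 61.1 to 63.3 CPM in the knockout. Of the interferon genes in the list, Ifng had a row, with 0 counts in WT and no value above 0.12 CPM in the knockout.

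**Figure D5:**
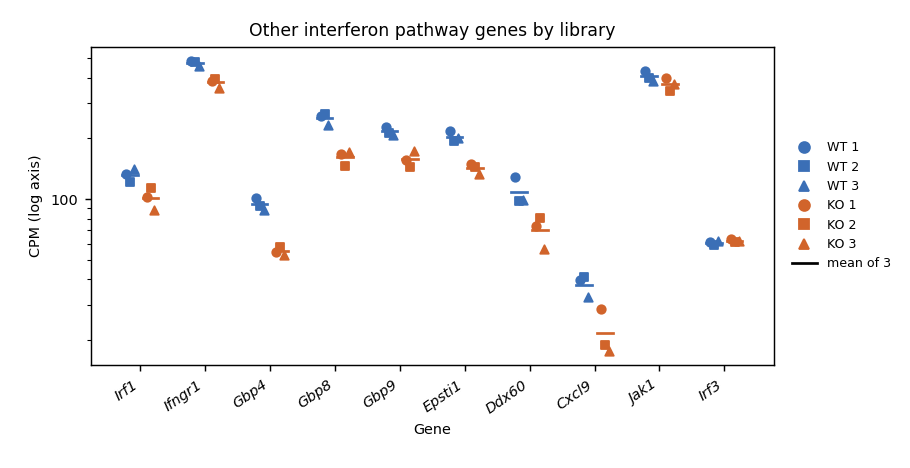
CPM (log axis) in each library for 10 interferon pathway genes outside the 54, drawn as in the plot of members (blue WT, orange knockout, shape by replicate, bar for the mean of 3). Gbp4, Gbp8, Gbp9 and Epsti1 have all 3 WT points above all 3 knockout points, while Jak1 and Irf3 overlap.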

How the data were processed

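RNA of splenic cDC2s was sequenced in 6 libraries, grouped by their titles. The authors deposited unnormalized counts of reads for each gene symbol. STAR, HTSeq, DESeq2 and build mm10 are named in the submitters' processing notes, and the sources used here give no version, annotation or strand setting. These counts entered edgeR 4.0.16 under R 4.3.3 (filterByExpr, TMM, quasi-likelihood test with genotype as the term). CPM used TMM-scaled sizes, log2 CPM a prior count of 2, and SEs came from the fold change and F statistic. Exon lengths and positions came from GENCODE vM21 (mm10). The procedure was tested on simulated counts. Members and lists were chosen with earlier results of these data known. By rule, values per library were due for members that passed the test and the 8 with the widest WT range. They were also due for Ifnar1, Ifnar2, Stat2, Irf9, Irf7, Ifih1, Ddx58, Mb21d1 and Tmem173. Outside the 54 they were due for Jak1, Tyk2, Irf1, Irf3, Mavs and called genes with the smallest p. The text prints only ranges for Ifi205 and Irf3, and only fold changes for Jak1, Tyk2, Mavs and Gbp9. Some genes under this rule are not reported here. Alternatives were DESeq2 1.42.0 size factors, no scaling, upper-quartile factors, other filters, DESeq2's Wald test, limma-voom 3.58.1, a replicate block and leaving out each library.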

Additional observations from a re-analysis of the deposited data

How the results depend on the processing

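With 3 libraries a group, single libraries decided most calls. Leaving out each library in turn gave 0 to 8 of the 54 genes lower (5 with all 6 libraries), 0 to 1 higher, 6 to 14 other pathway genes lower, and among all genes 310 to 583 higher (586) and 264 to 489 lower (527). The cause was not tested, but each such fit has fewer samples. Upper-quartile factors, no filter on low counts, a filter of at least 5 CPM in 3 libraries and DESeq2's Wald test each gave 8 lower, where 9.41%, 7.76%, 12.3% and 11.2% of all genes were called against 9.67%, and upper-quartile factors gave 0 higher. The median log2 fold change over the 54 stayed below 0 under each alternative run, from -0.28 to -0.06. A spacing of 2 or 3 bases gave 25 genes with a promoter match in place of 22.

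Over all genes tested, libraries with the same replicate number did not deviate together (r of 0.038, -0.033 and -0.033). All combinations of a WT and a knockout library lay between -0.033 and 0.062. With 3 libraries a group this cannot decide whether libraries were paired, and the main fit assumed no pairing. With a replicate block 4 of the 54 were lower and 0 higher, 3 of them shared with the 6 calls, and 496 of all genes were higher and 449 lower.

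Small fold changes turned sign. Without scaling factors Ifi203 was at 0.011, Eif2ak2 at 0.014 and Isg20 at 0.026, and without the filter Isg20 was at 0.0014. Gbp2 was at 0.0092 with the replicate block. Xaf1 was at -0.019 with upper-quartile factors, -0.0016 with the stricter filter and -0.0063 with limma-voom. Leaving out single libraries moved log2 fold changes across 0 in Irf7 (-0.32 to 0.14), Tmem173 (-0.23 to 0.0012), Ifi203 (-0.21 to 0.085), Ifi205 (-1.24 to 0.21), Oasl1 (-0.82 to 0.026), Eif2ak2 (-0.085 to 0.073), Ifit1 (-0.28 to 0.16), Isg20 (-0.16 to 0.20), Mx2 (-0.43 to 0.033), Rsad2 (-0.33 to 0.19), Cmpk2 (-0.36 to 0.14), Ifitm2 (-0.23 to 0.14), Isg15 (-0.46 to 0.0086), Gbp2 (-0.34 to 0.32), Xaf1 (-0.14 to 0.22), Ifi35 (-0.21 to 0.079), Phf11d (-0.11 to 0.19) and Mavs (-0.23 to 0.10).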
